A study of Mus musculus with 16 samples.

Results

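Wdfy4-deficient dendritic cells were compared with cells that kept the gene, in the lymph node on the side away from a tumour. The comparison used 8 of the 16 arrays of the series: 4 arrays of WDFY4 KO cells and 4 arrays of WDFY4 Het cells, each sorted as cDC1 from the inguinal lymph node of the flank labelled non-draining, chosen by these labels alone. All mice were C57BL/6 and all carried regressor tumours, a type that the host rejects, injected into the back flank 6 days before harvest, so no mouse of the series was free of a tumour. The other 8 arrays were KO and Het cDC1 of the draining node of the same kind of mouse, and they enter here only through the shared estimate of the spread and through a test of the difference between the nodes. The mice's age is not given in the sources used here. The Het cells have an intact copy of the gene and are not wild type, and which part of Wdfy4 was deleted is not stated in the labels. Nothing in them says whether each array was a different mouse, so the p-values here cover only the spread among these samples, part of which may be technical. The arrays are called KO 1 to 4 and Het 1 to 4 by the numbers in their labels, and values are given for arrays 1 and 2 and for arrays 3 and 4 apart, because those sets of numbers differ across the genome as described below.

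Type 1 conventional dendritic cells (cDC1) take up material from dead cells and show its peptides to CD8 T cells on MHC class I, a route called cross-presentation. WDFY4 is a large protein of the BEACH domain family, whose members act in vesicle traffic, and mouse cDC1 without it fail to cross-present cell-associated antigen while the cells themselves still develop. Heat shock chaperones and immediate early genes are transcribed within minutes of a stimulus. Heat shock factor binds inverted GAA triplets in promoters, Jun and Fos proteins form the AP-1 transcription factor, and interferon turns on antiviral genes through factors that bind paired GAAA repeats.

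Binding sequences of heat shock factor and of the interferon factors were searched in the 250 bases before each measured gene's RefSeq start site. The start sites came from the GRCm38.p6 promoter table. No AP-1 binding sequence was searched. Lists of heat shock, AP-1 and interferon genes are described below, and no gene of these lists passed the test over all arrays. The inverted triplet GAANNTTC, which reads the same on both strands, was found for 6 of the 19 genes of the heat shock list with a promoter in the table (31.6%), Hspa1a, Hspd1, Hspb1, Hspe1, Dnaja1 and Fkbp4, against 6.87% of the 15614 measured genes with a promoter there. Hsph1, Stip1, Hsp90aa1 and Dnajb1 were not among the genes found. Among AP-1 genes 2 of 10 held the triplet (20%), Jun and Fosl2, and among other immediate early genes 1 of 22 (4.55%), Sgk1. It was also found for 2 of 19 interferon-induced effectors (10.5%), 1 of 10 interferon sensors and factors (10%) and 1 of 12 chemokine and cytokine genes (8.33%). The interferon-stimulated response element was searched on both strands as 2 GAAA blocks with any 2 bases between them. This element was found for 7 of 19 interferon-induced effector genes (36.8%), against 3.4% of the measured genes. Among chemokine and cytokine genes 1 of 12 held it, Cxcl10. Other matches were in 1 of 10 AP-1 genes (10%), 2 of 22 other immediate early genes (9.09%) and 1 of 10 interferon sensors and factors (10%). The heat shock list held 0 in 19. A match is a description of the letters and not evidence of binding. The promoters of Hspa1a, Jun and Cxcl10 are shown because these genes had a match and KO arrays that all lay above the Het arrays; each runs 5′ to 3′ on the gene's own strand up to the base before the start site, with the match in capitals.
Hspa1a, chr17:34972157-34972406, minus strand, GAAGATTC beginning 104 bases before the start: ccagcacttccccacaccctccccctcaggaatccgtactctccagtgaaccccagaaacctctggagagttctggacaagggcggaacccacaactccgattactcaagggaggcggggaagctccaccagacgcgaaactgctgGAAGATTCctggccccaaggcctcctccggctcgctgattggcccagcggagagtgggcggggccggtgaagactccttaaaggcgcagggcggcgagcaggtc
Jun, chr4:95052223-95052472, minus strand, GAATCTTC beginning 128 bases before the start: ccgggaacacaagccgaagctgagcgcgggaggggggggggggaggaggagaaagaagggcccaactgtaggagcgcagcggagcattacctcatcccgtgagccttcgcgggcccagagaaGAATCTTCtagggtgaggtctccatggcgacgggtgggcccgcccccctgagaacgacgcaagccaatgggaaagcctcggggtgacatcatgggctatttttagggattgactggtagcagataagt
Cxcl10, chr5:92348890-92349139, minus strand, GAAAGTGAAA beginning 213 bases before the start: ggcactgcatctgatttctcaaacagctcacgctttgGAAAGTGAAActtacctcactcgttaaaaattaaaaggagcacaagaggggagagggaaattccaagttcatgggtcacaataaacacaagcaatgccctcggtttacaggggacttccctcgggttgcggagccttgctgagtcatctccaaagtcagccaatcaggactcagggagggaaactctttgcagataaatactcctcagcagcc

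The targeted gene gave overlapping groups. The brightest Wdfy4 probe set (10418848, chromosome 14) had intensities of 2356, 3165, 1923 and 2056 on KO 1 to 4, against 3332, 3222, 2278 and 2386 on Het 1 to 4. Within each set of numbers the KO arrays lay below both Het arrays, but across the sets KO 1 lay above Het 3, and KO 2 above Het 3 and Het 4. The log2 difference of KO minus Het was -0.25 ± 0.18 (SE), with -0.26 in arrays 1 and 2 and -0.23 in arrays 3 and 4, and the exact two-sided permutation p was 0.229, where 0.0286 is the smallest that 4 against 4 arrays can give. With genotypes exchanged only inside each set of numbers, a test chosen after the data were seen, the exact two-sided permutation p was 0.0556, the smallest that its 36 arrangements can give. The dimmer Wdfy4 probe set (10418868) read 484, 723, 383 and 334 in KO, against 582, 805, 410 and 401 in Het cells. There KO 2 lay above Het 1 within arrays 1 and 2, and the log2 difference was -0.19. Its exact two-sided permutation p was 0.6, and 0.333 with genotypes exchanged only inside each set. A probe set outside the deleted part would read the transcript of both genotypes, so these levels do not check the labels. Lrrc18, which lies inside Wdfy4, had 19.3, 26.5, 26.9 and 26.6 in KO, against 29.2, 27.9, 33.5 and 29.9 in Het cells. Its groups did not overlap, at a log2 difference of -0.28 ± 0.15. Of 11 measured genes in the list of BEACH domain genes, which also holds Wdfy1, 9 stood higher in KO and 2 lower. They lay between -0.25 for Wdfy4 and 0.24 ± 0.14 for Wdfy1, a WD repeat and FYVE protein without a BEACH domain. None of the 11 reached an unadjusted p of 0.05. Without KO 2, 5 of the 11 stood higher.

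Across all genes no difference between KO and Het cells passed the test. In limma, 0 of 19938 genes had an adjusted p under 0.05, and the smallest adjusted p was 0.334, for Hsph1; every other gene named below had an adjusted p of 1 in this comparison. An unadjusted p under 0.05 was found for 259 genes higher in KO (1.30% of all genes) and 235 lower (1.18%), together 494 (2.48%). The KO arrays all exceeded the Het arrays for 239 genes (1.20%) and all lay below them for 238 (1.19%). The median log2 difference of all genes was 0.00, 51.9% of genes were higher in KO, and the median standard error of a difference was 0.12. The gene lists below were chosen with earlier results of these data known. Their counts beside a background are therefore descriptions and not tests.

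The arrays numbered 1 and 2 differed from those numbered 3 and 4 in both genotypes. Over all genes, pairs of arrays within numbers 3 and 4 correlated at 0.993 to 0.996, pairs within 1 and 2 at 0.988 to 0.989, and mixed pairs at 0.983 to 0.991. The first principal component, with 35.7% of the variance, put all 4 arrays numbered 1 or 2 on one side and all 4 numbered 3 or 4 on the other. The labels give no batch, and the numbers hold 2 KO and 2 Het arrays each, so each difference could be read within both. Of all genes, 26.9% were higher in KO within both sets and 24.1% were lower within both, so the sign was the same in 51.0% of genes. Across genes the differences of the sets correlated at 0.05, and at 0.11 among the 9969 brighter genes, where 53.5% had the same sign. A difference of the same sign in both sets was thus about as common as a difference of opposite signs.

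**Figure D1:**
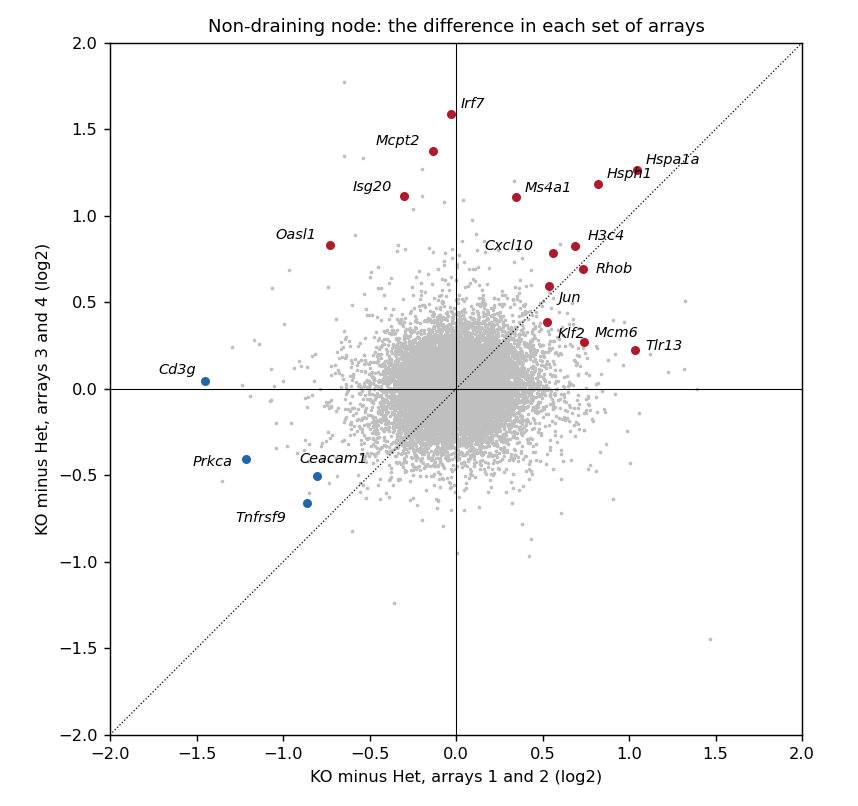
KO minus Het on the log2 scale within arrays 1 and 2 (horizontal) and within arrays 3 and 4 (vertical), 1 point per gene, with genes named in the text in red where their overall difference was above 0 and in blue where it was below; 2 genes lie outside the axes. Hsph1, Hspa1a, Jun, Rhob and H3c4 lie near the dotted line of equal differences, and Irf7, Mcpt2, Isg20, Oasl1 and Cd3g lie far from it.

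Before the pathways, the arrays were checked for the labelled cell type and for other cells. The cDC1 markers were plainly present on every array: the chemokine receptor gene Xcr1 read 1503 to 2495 in KO and 1240 to 2252 in Het cells, and Clec9a, a receptor for dead cells, 1189 to 1778 in KO and 1031 to 1498 in Het cells, where the median of all probe sets per array was 38.6 to 40.1. Xcr1 was chosen after its values were seen. Of 24 measured cDC1 markers 19 were higher in KO, with a median log2 difference of 0.21 (0.15 in arrays 1 and 2, 0.22 in arrays 3 and 4), and 17 were higher in both sets, where 26.9% of all genes were. The members with an unadjusted p under 0.05 were 4 (background, the share of all genes, 1.30%): the sorting nexin Snx22 (0.56 ± 0.19), the inhibitory receptor Btla (0.42 ± 0.17), the germinal centre signalling gene Gcsam (0.41 ± 0.16) and Cd8a (0.40 ± 0.16). In none of the 24 did the groups separate completely. Irf8, the transcription factor on which cDC1 depend, differed by 0.19 ± 0.12 and Naaa, an amidase of lysosomes, by 0.29 ± 0.14. Xcr1 differed by 0.24 ± 0.21 and Clec9a by 0.21 ± 0.14. The median of this list was between 0.10 and 0.32 when single arrays were left out, 0.32 without Het 2 and 0.10 without Het 4. In the draining node its median was -0.02, and 10 of the 24 markers were higher in KO. The list includes Wdfy4 itself.

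T cell markers were lower and B cell markers higher in KO, each in 1 set of arrays above all. In RNA of sorted bulk cells, fewer cells of a type and less of its RNA per cell cannot be told apart. All 14 measured T cell markers were lower in KO, with a median of -0.29, but the median was -0.52 in arrays 1 and 2 and -0.04 in arrays 3 and 4. Without KO 2 the median was -0.12 and 4 of the 14 were higher. The summed intensity of the list was 1329 to 3348 over the KO and 1810 to 3440 over the Het arrays. Cd3g, a chain of the T cell receptor complex, read 226, 155, 787 and 629 in KO, against 727, 363, 672 and 694 in Het cells, so KO 1 and KO 2 were low and the remaining KO arrays lay at the Het level. The scavenger receptor genes Cd5 (-0.62 ± 0.27) and Cd6 (-0.57 ± 0.25) had the smallest p of the list and the same arrangement. Of 12 measured B cell markers 11 were higher in KO, with a median of 0.33, which was 0.06 in arrays 1 and 2 and 0.80 in arrays 3 and 4, and summed intensities of 906 to 1307 in KO and 725 to 1186 in Het cells. Ms4a1, which codes for CD20, read 42.8, 44.7, 46.9 and 60.4 in KO, against 21.1, 55.1, 23.8 and 24.6 in Het cells, and the overlap came from Het 2 alone. The B cell factor Pax5 differed by 0.51 ± 0.21, the receptor chain Cd79a by 0.56 ± 0.30, complement receptor Cr2 by 0.46 ± 0.23 and the B cell kinase Blk by 0.24 ± 0.12. Bank1, a scaffold of B cell receptor signalling, had one of the largest differences of all brighter genes, 0.77 ± 0.27, at 124, 70.7, 89.9 and 116 in KO, against 51.1, 107, 47.0 and 40.8 in Het cells. No marker of either list was at 0, because every value on these arrays is above 0.

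Markers of other cells differed less. Of 9 NK and cytotoxic cell markers 7 were higher in KO (median 0.13, with -0.09 in arrays 1 and 2 and 0.18 in arrays 3 and 4), and Ncr1, an activating NK receptor, read 99.8 on KO 1 alone, against 20.3 to 38.7 on the 7 remaining arrays. Medians were -0.01 for 13 macrophage and monocyte markers, -0.08 for 9 markers of cDC2, the second conventional subset, 0.06 for 7 plasmacytoid markers, 0.04 for 10 stromal markers, -0.04 for 8 neutrophil markers, 0.07 for 7 plasma cell markers, -0.12 for 8 markers of skin migratory and Langerhans cells and -0.01 for 3 erythroid markers. The part of these markers in the results below was not tested.

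The heat shock chaperones held the gene of smallest p in the whole comparison. Hsph1, an HSP110 chaperone that reloads HSP70 with ATP, read 304, 398, 506 and 307 in KO cells, against 201, 192, 178 and 168 in Het cells. The groups were fully separate. The mean was 379 ± 95.3 in KO and 185 ± 14.8 in Het cells (SD, n = 4 each), and the log2 difference was 1.00 ± 0.17, a 2.00-fold ratio with an adjusted p of 0.334 in limma. It was 0.82 in arrays 1 and 2 and 1.18 in arrays 3 and 4, and 0.56 in the draining node. Hspa1a, the inducible HSP70, read 682, 660, 1326 and 861 in KO, against 222, 475, 468 and 421 in Het cells. Its groups did not overlap either, and the log2 difference was 1.16 ± 0.35, a 2.23-fold ratio, with 1.05 and 1.27 in the 2 sets. Hspa1a has a near-identical copy, Hspa1b, and the probes may read both. Without Het 1, where it was lowest, the difference of Hspa1a was 0.90.

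Other chaperones stood higher by less. Of 21 measured genes of this list 17 were higher in KO and 13 were higher in both sets (background 26.9%), with a median of 0.16 against 0.00 for all genes, and 0.11 and 0.22 in the 2 sets. Unadjusted p was under 0.05 for 6, all higher (background 1.30%), and KO lay wholly above Het for 3 (background 1.20%), Hsph1, Hspa1a and Stip1. Stip1, the bridge between HSP70 and HSP90, read 492, 450, 506 and 506 in KO, against 443, 398, 409 and 399 in Het cells, a difference of 0.24 ± 0.09. Hsp90aa1, the inducible HSP90, differed by 0.32 ± 0.11, and both of its dimmer probe sets gave 0.33. Hspd1, a chaperonin of mitochondria, differed by 0.52 ± 0.21, and Dnajb1, a partner of HSP70, by 0.40 ± 0.17, with 0.02 in arrays 1 and 2 and 0.77 in arrays 3 and 4; these 2 genes were chosen after their values were seen. The median of the list was 0.06 in the draining node, where 14 of the 21 genes were higher in KO. There Hspa1a differed by 0.79 ± 0.35 and Dnajb1 by 0.45 ± 0.17. Hspd1 differed by 0.16, Hsp90aa1 by 0.09 and Stip1 by -0.01 in that node.

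**Figure D2:**
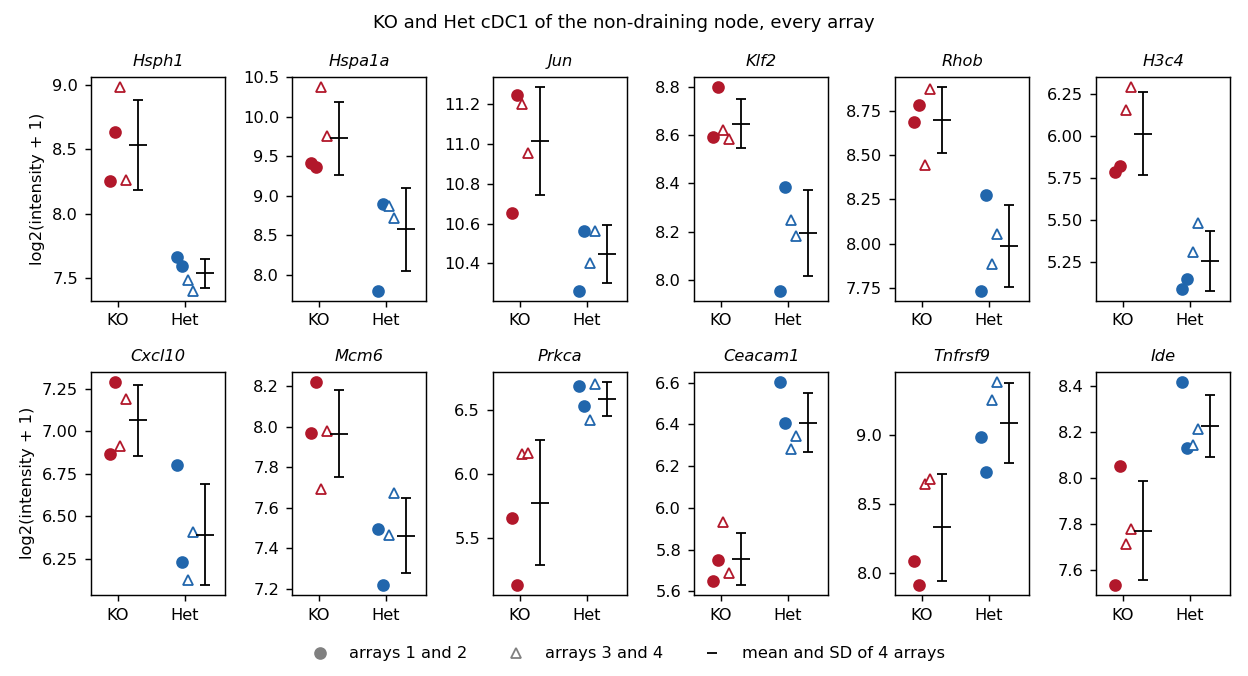
log2(intensity + 1) of 12 genes on every non-draining array, KO left and Het right, filled circles for arrays 1 and 2 and open triangles for arrays 3 and 4, with the mean and SD of 4 arrays beside them; each vertical axis has its own range. Hsph1, Hspa1a, Jun, Klf2, Rhob, H3c4, Cxcl10 and Mcm6 show all KO arrays above all Het arrays, and Prkca, Ceacam1, Tnfrsf9 and Ide show all KO arrays below.

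Immediate early genes stood higher in KO in nearly all members. Jun read 1610, 2427, 2354 and 1986 in KO, against 1229, 1511, 1352 and 1514 in Het cells, a complete separation in which the log2 difference was 0.57 ± 0.14, 0.54 in arrays 1 and 2 and 0.60 in arrays 3 and 4. Of the 12 AP-1 genes 9 were higher in KO, with a median of 0.11, and 3 had an unadjusted p under 0.05 and were higher (background 1.30%), Jun, the stress-induced factor Atf3 (0.52 ± 0.21) and Jund (0.18 ± 0.08). Fos (0.34 ± 0.17), Fosb (0.33 ± 0.22) and Junb (0.22 ± 0.12) had overlapping groups. The interval of the Fos difference was -0.03 to 0.71 (95%). Among 27 other immediate early genes 25 were higher in KO, 17 of them in both sets, with a median of 0.20, and 0.14 and 0.24 in the 2 sets. Unadjusted p was under 0.05 for 5 of them (background 1.30%), Klf2, Rhob, Ier2, Ppp1r15a and Egr1, and KO lay wholly above Het for 5 (background 1.20%), Klf2, Rhob, Ier2, Btg2 (0.25 ± 0.13) and Klf6 (0.14 ± 0.09), of which the last 2 were chosen after their values were seen. The zinc finger factor Klf2 read 385, 444, 392 and 382 in KO, against 247, 333, 303 and 289 in Het cells (0.46 ± 0.13). The GTPase Rhob read 411, 440, 347 and 469 in KO, against 212, 309, 235 and 265 in Het cells (0.71 ± 0.21). In both genes the lowest KO array lay above the highest Het array. Ier2 differed by 0.42 ± 0.19, Egr1, a zinc finger factor chosen after its values were seen, by 0.40 ± 0.19 and Ppp1r15a, which brings a phosphatase to the translation factor eIF2α, by 0.29 ± 0.13. Per array the mean of these 27 genes, set against its mean over the 8 arrays, was 0.02, 0.20, 0.11 and 0.06 for KO 1 to 4, against -0.12, 0.02, -0.16 and -0.14 for Het 1 to 4. The medians in the draining node were 0.19 for AP-1 and 0.17 for the other immediate early genes. For the difference between the nodes, 1 gene of these 2 lists, Fosl2, had an unadjusted p under 0.05 in limma. That is about the share of all genes (background 2.32%). Fosl2 differed by -0.22 in the non-draining and 0.48 in the draining node.

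Genes of protein folding in the endoplasmic reticulum differed by little: 21 of 25 stood higher in KO, the median was 0.08, and it was 0.01 and 0.13 in the 2 sets. Only 1 member, Creld2, had an unadjusted p under 0.05 (background 1.30%). Creld2, a resident of that compartment that stress induces, read 330, 357, 353 and 355 in KO, against 283, 251, 260 and 224 in Het cells, and the groups did not overlap (0.46 ± 0.17). In the draining node its difference was -0.15, and the difference between the nodes was 0.61 ± 0.24, with an adjusted p of 1 in limma. Hsp90b1, the HSP90 of this compartment, differed by 0.19 ± 0.10, its partner chaperone Dnajb11 by 0.22 ± 0.11 and Herpud1, which helps to remove misfolded proteins, by 0.25 ± 0.13.

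**Figure D3:**
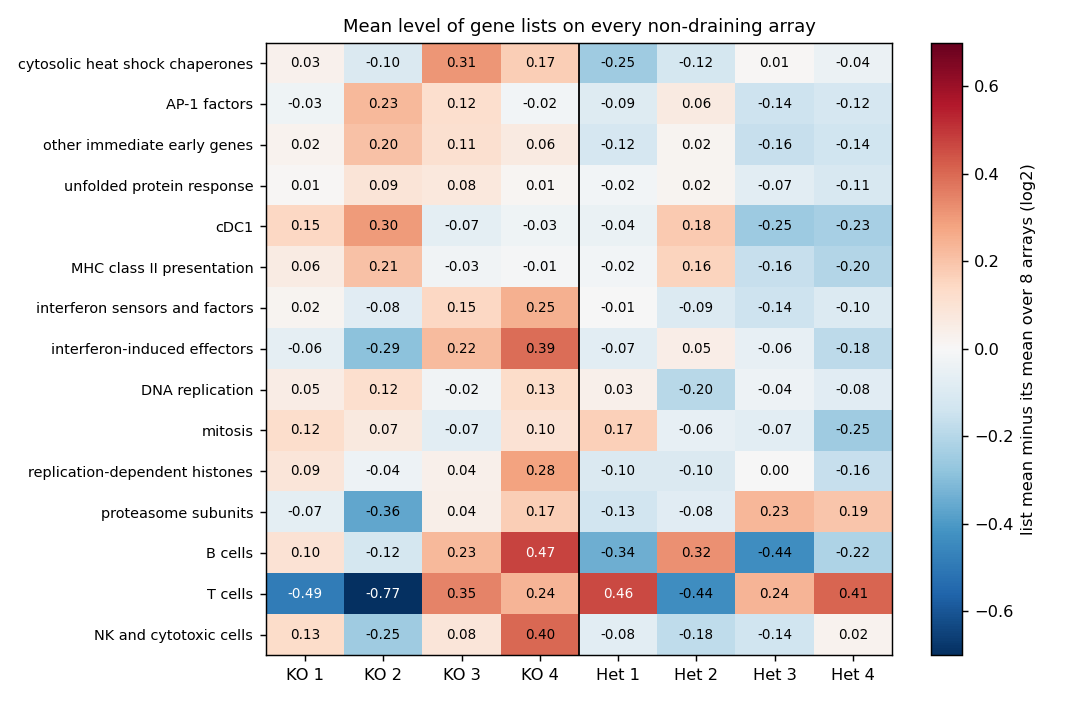
Mean log2 level of 15 gene lists on each array (columns, KO 1 to 4 left of the line and Het 1 to 4 right of it), set against the list's mean over the 8 arrays, with red above and blue below. The other immediate early genes are at or above 0.02 on every KO array and at or below 0.02 on every Het array, while the T cell list runs from -0.77 on KO 2 to 0.46 on Het 1 and the interferon-induced effectors are high on KO 3 and KO 4 alone.

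Interferon genes divided by the array numbers. The 25 measured interferon-induced effectors had a median of 0.13, made of -0.16 in arrays 1 and 2 and 0.37 in arrays 3 and 4, and 8 of them had an unadjusted p under 0.05 for the difference between the sets (background 3.17%). Irf7, the factor that amplifies type I interferon, read 288, 271, 440 and 616 in KO, against 251, 323, 175 and 170 in Het cells. In arrays 1 and 2 the genotypes overlapped, at a difference of -0.03, and in arrays 3 and 4 both KO arrays lay far above both Het arrays, at 1.59. A fit of arrays 3 and 4 alone, with 2 arrays per group, gave Irf7 an adjusted p of 0.0301 in limma, and it called 2 genes (0.0100%). The exonuclease gene Isg20 read 103, 62.0, 149 and 227 in KO, against 95.9, 102, 89.7 and 79.2 in Het cells, a difference of -0.30 in arrays 1 and 2 and 1.11 in arrays 3 and 4. Oasl1, which restrains Irf7 translation in mice, read 55.3, 46.1, 102 and 111 in KO, against 80.0, 89.0, 56.2 and 62.6 in Het cells, and the order of the genotypes was opposite in the 2 sets (-0.73 and 0.83). The antiviral synthetase Oas2 was also lower in KO in arrays 1 and 2 and higher in arrays 3 and 4 (-0.16 and 0.66), while the related Oas1a stood at 0.05 and 0.59.

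The RNA sensors did not all follow this division. Of 13 interferon sensors and factors 10 were higher in KO, with a median of 0.13, and -0.03 and 0.20 in the 2 sets. Ddx58, which codes for RIG-I, differed by 0.41 ± 0.21 (0.28 and 0.54), Ifih1, which codes for MDA5, by 0.27 ± 0.14 (0.35 and 0.18) and the growth inhibitor Samd9l by 0.26 ± 0.13 (0.31 and 0.22). Their regulator Dhx58 differed by -0.03 and 0.64. Of 8 measured interferon-induced GTPases of the IRG and GBP families 7 were higher in KO, with a median of 0.11, 0.20 and 0.03 in the 2 sets, and none had an unadjusted p under 0.05. Without Het 2 the median was -0.05 and 3 of the 8 were higher. Gbp7 (0.33 ± 0.22) read 69.9 on KO 3 and at most 43.2 on the other KO arrays, and the groups overlapped.

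**Figure D4:**
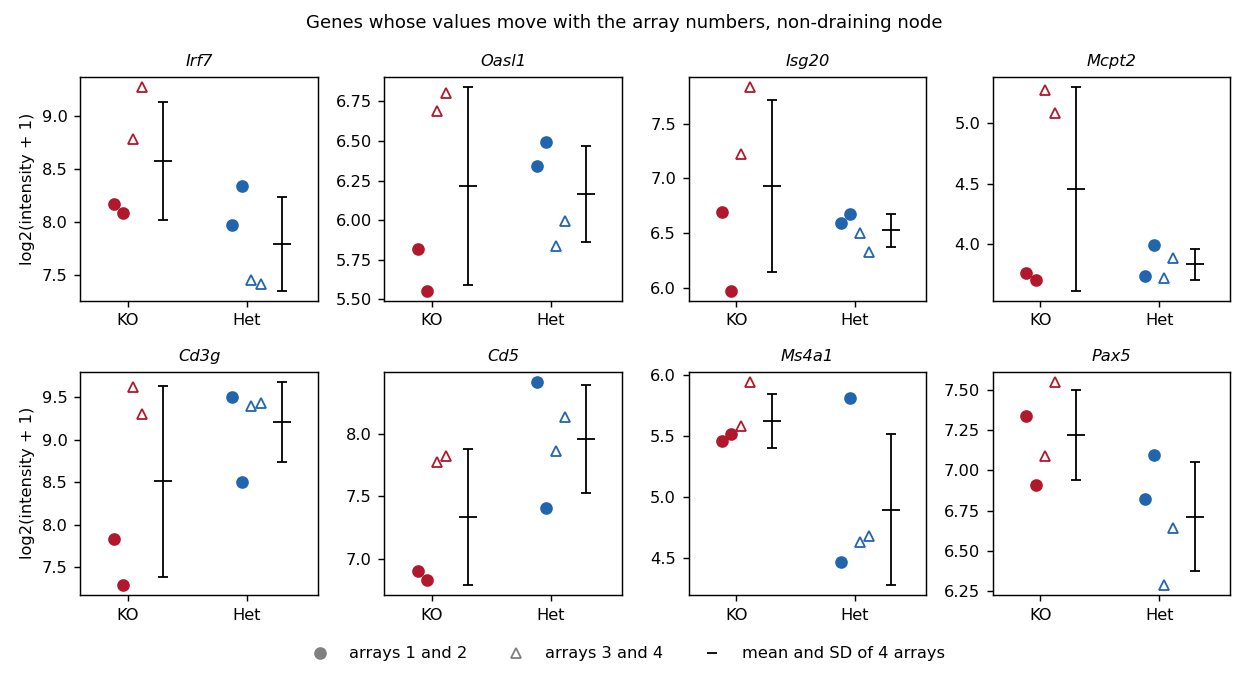
log2(intensity + 1) of 8 genes on every non-draining array, KO left and Het right, filled circles for arrays 1 and 2 and open triangles for arrays 3 and 4, with the mean and SD of 4 arrays. For Irf7, Oasl1, Isg20 and Mcpt2 the open KO triangles stand above all other points, and for Cd3g and Cd5 the filled KO circles stand below them.

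Among 18 chemokine and T cell cytokine genes KO lay wholly above Het for 2 (background 1.20%), Cxcl10 and Tnf. In limma the unadjusted p was under 0.05 for 2, Cxcl10 and Cxcl9, both higher (background 1.30%). Cxcl10, a ligand of CXCR3, read 116, 156, 120 and 145 in KO, against 111, 74.2, 69.0 and 84.0 in Het cells. The lowest KO array lay just above the highest Het array, and the difference was 0.67 ± 0.17, with 0.56 and 0.78 in the 2 sets. In the draining node KO cells had less of it, at -0.26, and the difference between the nodes was 0.93 ± 0.25, with an adjusted p of 1 in limma. Cxcl9, which binds the same receptor, differed by 0.40 ± 0.17 (0.27 and 0.54), with -0.15 in the draining node. Tnf, an inflammatory cytokine chosen after its values were seen, read 444, 616, 444 and 402 in KO, against 376, 362, 339 and 371 in Het cells (0.38 ± 0.29). The inflammatory cytokine Il1b differed by 0.28 ± 0.17 and Il12b, the shared subunit of IL-12 and IL-23, by -0.28 ± 0.17. Over the 18 chemokines and T cell cytokines 10 were higher and 8 lower, and the median was 0.08.

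Of 28 DNA replication genes 26 stood higher in KO, 19 of them in both sets, and the median was 0.13, with 0.12 and 0.10 in the 2 sets. The summed intensity of the list was 5027 to 5449 over the KO and 4361 to 4928 over the Het arrays, without overlap. On the mean log2 level of the list the groups did overlap, with KO 3 (-0.02 against the mean of the 8 arrays) below Het 1 (0.03). Unadjusted p was under 0.05 for 3 members, all higher (background 1.30%). Mcm6, a subunit of the replicative helicase, read 250, 298, 206 and 252 in KO, against 179, 148, 176 and 203 in Het cells, and the groups did not overlap (0.50 ± 0.14). The DNA glycosylase Ung differed by 0.30 ± 0.09, the sliding clamp Pcna by 0.23 ± 0.10 and the helicase subunit Mcm3 by 0.24 ± 0.16. Cdc25a, a phosphatase that opens S phase, read 86.9, 81.2, 71.5 and 83.0 in KO, against 67.1, 55.1, 53.0 and 61.9 in Het cells, a complete separation (0.44 ± 0.13). Of 19 measured histone genes that are transcribed in S phase 17 stood higher, and their median was 0.14. H3c4 read 54.4, 55.7, 70.4 and 77.3 in KO, against 33.1, 34.5, 38.7 and 43.8 in Het cells, where all KO arrays lay above all Het arrays (0.76 ± 0.15, a 1.69-fold ratio). H4c8 (0.32 ± 0.17), H4c3 (0.22 ± 0.14) and H4c14 (0.21 ± 0.13) overlapped. Histone genes resemble each other, so reads of single members are uncertain.

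Of 26 genes of mitosis 21 stood higher, the median was 0.13, with 0.04 and 0.17 in the 2 sets, and 0 had an unadjusted p under 0.05. Without Het 4 the median was 0.04, and without KO 1 it was 0.08. The mitotic kinase Aurkb differed by 0.34 ± 0.17 and the topoisomerase Top2a by 0.17 ± 0.15. In the draining node the medians were -0.09 for replication, -0.31 for mitosis and -0.01 for the histones. The test of the difference between the nodes gave an unadjusted p under 0.05 for 3 of 28 replication genes (Mcm6, Ung and Mcm7, the last chosen after its values were seen), 9 of 26 mitosis genes and 3 of 19 histone genes (H3c4, H4c8 and H4c14), where the background was 2.32%. Cdc25a gave 0.73 ± 0.18, Top2a 0.62 ± 0.21 and Aurkb 0.53 ± 0.24, all with an adjusted p of 1 in limma. B cell markers, which were higher in KO as given above, had a draining median of 0.13 and T cell markers one of 0.26, and the part of other dividing cells in these values was not tested.

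Of 15 measured Toll-like receptors and adaptors 12 were higher in KO, 8 of them in both sets, with a median of 0.12. Unadjusted p was under 0.05 for 2, Tlr12 and Tlr13, both higher (background 1.30%). Tlr12, an endosomal receptor for profilin of parasites, read 130, 107, 122 and 113 in KO, against 95.8, 82.2, 88.7 and 84.2 in Het cells, a complete separation at 0.42 ± 0.15 with 0.41 and 0.44 in the 2 sets. Tlr13, a receptor for bacterial ribosomal RNA, read 313, 347, 155 and 190 in KO, against 148, 174, 153 and 140 in Het cells. Here the difference lay in arrays 1 and 2 (1.03) more than in arrays 3 and 4 (0.22). The differences between the nodes were 0.51 ± 0.21 for Tlr12 and 0.81 ± 0.31 for Tlr13, with an adjusted p of 1 for both in limma. Tlr8 was dim and lay below Het on all KO arrays (-0.26 ± 0.18), and Tlr4, the receptor for lipopolysaccharide, differed by 0.19 ± 0.09.

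Antigen uptake and presentation differed little. Of 27 uptake and cross-presentation genes 18 were higher and 9 lower, with a median of 0.08, and none had an unadjusted p under 0.05. The scavenger receptor Cd36 differed by 0.39 ± 0.19, the same in both sets (0.39 and 0.39), while the uptake receptors Ly75 (-0.32 ± 0.18) and Lrp1 (-0.18 ± 0.10) stood lower. All 11 measured genes of MHC class II presentation were higher in KO, 8 of them in both sets, but the median was 0.06. Ciita, the master regulator of class II genes, differed by 0.34 ± 0.21 and the class II chain H2-Eb1 by 0.06 ± 0.08, with an interval of -0.12 to 0.23 (95%). Of 14 genes of MHC class I processing 6 were higher and 8 lower, with a median of -0.01 and a range of -0.15 to 0.08, and without Het 4 10 were higher. Among 19 costimulation and maturation genes 8 were higher and 11 lower (median -0.08). Cd274, which codes for the inhibitory ligand PD-L1, read 282, 311, 293 and 281 in KO, against 246, 207, 239 and 242 in Het cells. Its KO arrays all lay above the Het arrays (0.33 ± 0.17), with -0.25 in the draining node and 0.57 ± 0.24 for the difference between the nodes. The IL-15 receptor chain Il15ra differed by -0.34 ± 0.23.

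Among genes lower in KO, Prkca had the smallest p. This kinase of the protein kinase C family read 49.3, 34.1, 70.1 and 70.5 in KO, against 102, 91.1, 84.9 and 103 in Het cells. The groups did not overlap, and the log2 difference was -0.81 ± 0.18, a ratio of 0.571. It was -1.21 in arrays 1 and 2, -0.41 in arrays 3 and 4 and 0.00 in the draining node, and the difference between the nodes was -0.81 ± 0.26. Of the 11 measured genes of its family 7 were higher in KO (4 without Het 2), and Prkcb stood at 0.39 ± 0.21. Prkca is also transcribed in T cells, whose markers were low on KO 1 and KO 2; the part of T cells in its value was not tested. Il2ra, the IL-2 receptor chain of activated and regulatory T cells that mature dendritic cells also carry, read 95.8, 57.9, 128 and 114 in KO, against 203, 117, 156 and 151 in Het cells (-0.69 ± 0.26), and Stat4, a signal transducer of IL-12, differed by -0.65 ± 0.44, and by -0.15 without KO 2.

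A pair of surface receptors had lower levels in KO in both nodes, without passing the test. The costimulatory receptor Tnfrsf9 (4-1BB) read 270, 239, 398 and 409 in KO, against 505, 424, 609 and 669 in Het cells. All KO arrays lay below all Het arrays, at -0.76 ± 0.22, with -0.86 and -0.66 in the 2 sets and -0.62 in the draining node. The adhesion receptor Ceacam1 read 49.2, 52.9, 60.0 and 50.5 in KO, against 96.3, 83.7, 76.8 and 80.2 in Het cells, also without overlap (-0.65 ± 0.18, and -0.55 in the draining node). Of the 13 measured CEACAM genes 9 were lower, but their median was -0.03. Ide, the insulin-degrading protease, read 184, 264, 209 and 219 in KO, against 341, 279, 282 and 295 in Het cells (-0.46 ± 0.14, and -0.30 in the draining node).

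Of 22 lineage factors 16 were higher in KO and 6 lower, and the median was 0.04. An unadjusted p under 0.05 was found for 2 of them, both lower (background 1.18%). Ikzf5, an Ikaros family zinc finger gene, read 492, 530, 473 and 379 in KO, against 623, 719, 625 and 596 in Het cells, without overlap (-0.46 ± 0.12). A dimmer probe set of the same gene gave 0.15, so its probe sets disagree. Irf4, the factor of cDC2 and of activated dendritic cells, differed by -0.43 ± 0.20, and by -0.40 in the draining node. Ikzf4, another Ikaros family gene and 1 of the 15 of smallest p among those lower, read 96.4, 95.3, 92.8 and 88.6 in KO, against 124, 117, 103 and 124 in Het cells (-0.32 ± 0.10).

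Of 31 proteasome subunits 26 were lower in KO, 19 of them in both sets (background 24.1%), with a median of -0.09, and -0.12 and -0.09 in the 2 sets. The subunits Psmd1 (-0.32 ± 0.13), Psmd2 (-0.30 ± 0.13) and Psmd11 (-0.30 ± 0.14) of the regulatory cap had an unadjusted p under 0.05 (background 1.18%), the cap ATPase Psmc5 differed by -0.22 ± 0.17, and in none of the 31 did KO lie wholly below Het (background 1.19%). Without KO 2 the median was 0.02 and 17 of the 31 were higher, and the number higher was between 2 and 11 without other single arrays. The list's median in the draining node was -0.25. Ecpas, an adaptor of the proteasome, read 232, 239, 211 and 204 in KO, against 265, 292, 265 and 276 in Het cells, without overlap (-0.31 ± 0.10). Among 27 autophagy genes 11 were higher and 16 lower (median -0.05). Wipi2, which recruits the conjugation machinery to the forming membrane, read 118, 84.9, 115 and 110 in KO, against 138, 126, 142 and 143 in Het cells, a complete separation (-0.36 ± 0.11). Atg14, a subunit of the lipid kinase of autophagy, differed by -0.58 ± 0.25 and the cargo receptor Sqstm1 by -0.35 ± 0.17. The last 2 overlapped between the groups. In the lysosome list 12 of 25 genes were higher, with a median of -0.02.

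Of 17 measured clock genes 7 were higher and 10 lower in KO (median -0.10, with -0.11 and -0.02 in the 2 sets). The median of the clock list was between -0.10 and -0.03 when single arrays were left out, and at most 0.00 in any setting. Ciart, a repressor of the clock, read 22.1, 30.7, 36.3 and 27.7 in KO, against 49.2, 55.9, 29.2 and 55.0 in Het cells, where Het 3 alone lay among the KO arrays (-0.66 ± 0.20). In the draining node it was 0.42 higher in KO, and the difference between the nodes was -1.08 ± 0.29; a dimmer probe set of the gene gave -0.04 in the non-draining node. The nuclear receptor Rora differed by -0.41 ± 0.15. Sterol synthesis genes stood higher for 12 of 16 (median 0.12), glycolysis genes for 9 of 14 (0.05), respiratory chain subunits for 20 of 26 (0.05, with -0.05 in arrays 1 and 2 and 0.10 in arrays 3 and 4), liver X receptor targets for 4 of 10 (-0.03), subunits of NADPH oxidase for 3 of 7 (-0.05) and BCL2 family genes for 5 of 14 (-0.04). Of the respiratory chain subunits 9 were higher without KO 4 and 13 without Het 1, the NADPH oxidase subunits gave 5 without KO 2 and 1 without KO 3, the BCL2 genes gave 2 without KO 4 and 3 without KO 3 or Het 2, and the sterol median was 0.04 without Het 2.

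**Figure D5:**
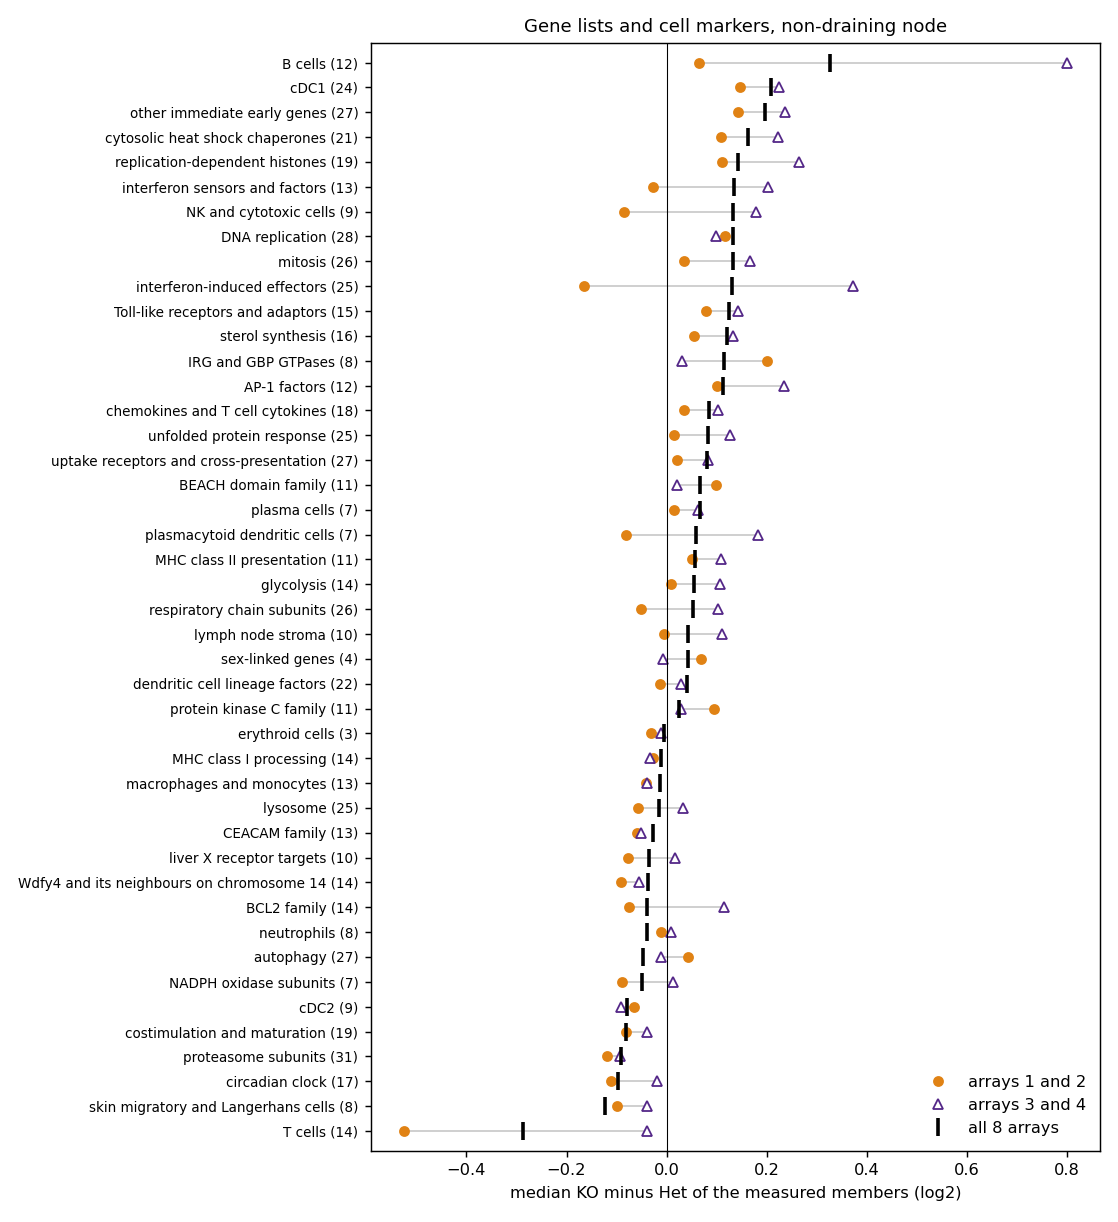
Median KO minus Het (log2) of the measured members of 44 gene lists and cell marker lists, with the number of members in brackets, from all 8 arrays (bars), from arrays 1 and 2 (filled circles) and from arrays 3 and 4 (open triangles). B cells, T cells and interferon-induced effectors have the widest gaps between the 2 sets, and the other immediate early genes, the heat shock chaperones and the cDC1 markers lie above 0 in both.

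Genes of no list were also among those of smallest p or largest difference, all with groups that did not overlap unless stated. Higher in KO were Zfp951, a zinc finger gene (0.68 ± 0.18, with KO 2 at 74.5 and the other KO arrays at 49.5 to 50.8, against 29.8 to 41.1 in Het cells), Lrrc40 (0.53 ± 0.15), Tssc4 (0.50 ± 0.14), Mrgprb13 (0.41 ± 0.11), Tpst1, a sulfotransferase of tyrosines (0.34 ± 0.09), and Mpzl3 (0.32 ± 0.10). Cfp, which codes for the complement factor properdin, read 153, 196, 191 and 190 in KO, against 137, 117, 147 and 146 in Het cells (0.41 ± 0.12). Stard5, a sterol carrier, differed by 0.34 ± 0.11. Mfsd2a, a lipid transporter, was among the largest differences with overlapping groups (0.72 ± 0.29). Lower in KO were Sync, which codes for an intermediate filament protein (-0.59 ± 0.16), Znrf3, a ubiquitin ligase that removes Wnt receptors (-0.58 ± 0.16), Card14, an adaptor of NF-κB signalling (-0.39 ± 0.11), Myo3b (-0.28 ± 0.09) and, with overlap, Colq (-0.46 ± 0.13). Psca differed by -0.71 ± 0.23, without overlap, and Penk, which codes for enkephalin, by -0.80 ± 0.42, with overlap.

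A difference between KO and Het that is particular to the non-draining node was tested for every gene as the difference between the nodes. In limma 0 of 19938 genes passed, the smallest adjusted p was 1, and 463 genes (2.32%) had an unadjusted p under 0.05. The 5 genes of smallest p were Cdc25a, Gpr33, Cxcl10, Ciart and Stard5. Gpr33, a chemoattractant receptor gene of the cDC1 list, read 475, 376, 302 and 433 in KO, against 321, 348, 325 and 261 in Het cells (0.32 ± 0.17), and was -0.66 in the draining node, which gave a difference of 0.98 ± 0.25. The GTPase gene Iigp1 differed between the nodes by 1.01 ± 0.38, because of -0.86 in the draining node, and by 0.15 ± 0.27 in the non-draining node. No gene's difference between KO and Het was thus shown to be particular to the non-draining node.

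The same test between the sets of arrays called 0 genes in limma, with 633 (3.17%) at an unadjusted p under 0.05 and a smallest adjusted p of 0.253, for Mcpt2. This mast cell protease gene read 12.6, 12.1, 37.8 and 33.0 in KO, against 12.4, 14.9, 12.2 and 13.8 in Het cells, so KO 3 and KO 4 alone were high (-0.13 and 1.38 in the 2 sets). It was the other gene called in arrays 3 and 4 alone, with an adjusted p of 0.0154 in limma. Sct, the hormone secretin, read 55.1, 50.9, 94.6 and 107 in KO, against 49.8, 62.0, 53.8 and 41.0 in Het cells, the same arrangement. Purg, a nucleic acid binding gene, went the other way, with 0.54 in arrays 1 and 2 and -0.35 in arrays 3 and 4. In arrays 1 and 2 alone 0 genes passed and 459 (2.30%) had an unadjusted p under 0.05, and in arrays 3 and 4 alone 1309 (6.57%) did.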

How the data were processed

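RNA of each sorted cDC1 sample was measured on its own Affymetrix Mouse Gene 1.0 ST array. The deposited table holds intensity values for 35556 probe sets, on a linear scale between 3.327 and 16300.089 as tested on the values. The authors normalized the arrays with RMA, per the submitters' processing notes, and the software version is not given in the sources used here. That method forces the same distribution on every array and compresses values near the floor, so low genes show too small a difference and a genome-wide shift would not be seen. Precision is limited by the number of arrays, which have no depth.

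Values were taken as log2(intensity + 1). The platform annotation named 1 gene for 21789 probe sets, several for 1621 and none for 12146. Where a gene had several probe sets (999 of 19938 genes), the one with the highest mean was used. The 13767 remaining probe sets gave 0 calls in limma and 313 at an unadjusted p under 0.05. KO minus Het, the difference between the nodes and the difference between the sets of numbers were fitted in limma 3.58.1 (R 4.3.3) over all 16 arrays, two-sided, with a mean per group (12 residual degrees of freedom) or per group and set (8), Benjamini-Hochberg adjustment over all genes and a threshold of 0.05. Errors after ± are limma standard errors for log2 differences and SDs for means of intensities. The fit was tested on simulated data. Wdfy4 was also tested by exact permutation of 70 arrangements, and of 36 within the sets of numbers. Plots used matplotlib 3.10.9 in Python 3.11.15.

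The members and the 44 gene lists (694 of 769 genes analysed here) were chosen with earlier results of these data known. A list is described by its counts and median beside those of all genes. The text names Wdfy4 and Lrrc18, the 15 genes of smallest p in each direction, the 8 largest differences in each direction among brighter genes, the 5 genes of smallest p in both difference tests, per list up to 4 members of smallest p and all members of lists of 12 or fewer, and the 3 brightest markers per cell type, with predicted and small RNA genes left out. It names part of these. A further 8 genes were chosen after their values were seen. Sequences are from the RefSeq promoter table. Alternatives covered the pseudocount, filter, probe set choice, prior, weights, normalization, blocks, sets of arrays and leaving out each array.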

Additional observations from a re-analysis of the deposited data

Results flagged for a closer look

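In 12 of 250 groups of 4 arrays tested, 1 array lay far from the other 3 by Dixon's criterion, and chance alone marks about 1 in 20 groups. Among KO arrays, KO 1 was low for Lrrc18 (19.29, the others 26.46 to 26.91), Creld2 (330.1, the others 353.2 to 356.9) and Cfp (152.6, the others 190.4 to 195.9). KO 2 was high for Klf2 (444.3, the others 382.5 to 392.3), Zfp951 (74.51, the others 49.45 to 50.79) and Mpzl3 (56.66, the others 49.69 to 50.45), and KO 3 was high for Gbp7 (69.93, the others 40 to 43.21). Among Het arrays, Het 1 was low for Hspa1a (221.6, the others 421 to 475.4). Het 2 was high for Ier2 (195.1, the others 154.5 to 159.1) and the B cell gene Ms4a1 (55.15, the others 21.11 to 24.6), and low for the T cell gene Cd3g (362.7, the others 671.8 to 727.2) and for Cd274 (206.6, the others 238.7 to 245.7). Het 2 thus carried 4 of the 5 values that stood apart among the Het arrays.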

How the results depend on the processing

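Of 2836 values for 124 named genes under 23 alternative settings, 2818 kept their direction and their side of the threshold, 16 turned their sign and 2 passed the threshold. Some settings, such as the blocks, the prior and the non-draining arrays only, change the spread alone and cannot turn a sign. Many of the named genes were also chosen by p or size on these same arrays, and none was called as reported. The count is therefore a description and not a test. No gene was called in limma in any setting other than arrays 3 and 4 alone, which called 2. Genes at an unadjusted p under 0.05 numbered 494 as reported, 246 among genes above the median level only, 753 with the non-draining arrays only, 1238 with array quality weights, 1309 in arrays 3 and 4 only, and 422 to 602 when single arrays were left out, where 0 genes were called each time. The fit as reported has no term for the sets of numbers, so its standard errors include the spread between them. With the set as a block, 0 genes were called and 723 had an unadjusted p under 0.05. In that fit the adjusted p of H3c4 was 0.206 in limma. With the replicate number as a block, 0 genes were called and 746 had an unadjusted p under 0.05. Deviations of same-numbered KO and Het arrays correlated at 0.02, 0.26, 0.25 and 0.35 for numbers 1 to 4, and some arrays correlated best with another number, so the arrays were not treated as pairs. The difference between the nodes gave 463 such genes as reported, 775 with genotype and number together as a random block, and 404 to 517 when single arrays were left out. The difference between the sets gave 633 as reported and 1021 with the non-draining arrays only. Wdfy4 lay between -0.39 and -0.15 when single arrays were left out. In arrays 1 and 2 only, the sign turned for Irf7 (-0.027), Dhx58 (-0.032), Oas2 (-0.16), Isg20 (-0.30), Oasl1 (-0.73), Mcpt2 (-0.13) and Sct (-0.067), and in arrays 3 and 4 only for Cd3g (0.044) and Purg (-0.35), which was also -0.10 with array quality weights. When single arrays were left out, Oasl1 ranged from -0.15 to 0.27, Purg from -0.026 to 0.22 and Iigp1 from -0.15 to 0.35. The median of the B cell list was 0.55 without Het 2, and that of the T cell list -0.50 without Het 2 and -0.12 without KO 2. The median of the IRG and GBP GTPases was -0.05 without Het 2. The interferon-induced effector median was 0.26 without KO 2 and 0.06 without KO 4. The cause of these changes was not tested. The median log2 difference of all genes was 0.0103 with quantile normalization and 0.017 with centring, against 0.0048 as reported. The adjusted p of Hsph1 was 0.0536 at its smallest, with array quality weights, and 1 at its largest. Dim genes such as Tlr8 and Mcpt2 lie near the floor of the arrays, where differences are understated.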
